A study of Caenorhabditis elegans with 12 samples.

Results

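The comparison was that of miR-51 family null (miR-51Fam null) with wild-type Caenorhabditis elegans embryos at the bean stage, when the embryo begins to lengthen from a ball of cells into a worm. It comprised the 4 libraries labelled bean, 2 of each genotype, out of 12 libraries in the series. The other 8 were the same genotypes at the 190-cell stage before and the 2-fold stage after, and they entered the fit and the comparisons between stages. Each library held the polyadenylated RNA of 50 whole embryos from parents grown at 20 °C on OP50 bacteria. Embryos were freed from adults by bleach, taken at the 2-cell stage with a mouth pipette and left to develop in M9 buffer. Wild-type embryos were of the strain N2. The null strain, MLC1800, carries the alleles nDf67 and n4100 on chromosome IV and nDf58 on chromosome X, which together remove the 6 genes of the family, and the extrachromosomal array lucEx1057. That array holds a fosmid with the miR-54 cluster and the fluorescent markers ttx-3::gfp and mir-35p::gfp. How embryos with and without the array were told apart for these libraries was not given in the sources used here. The methods call the libraries independent duplicates of each genotype, and all carry the same batch label. P-values measure the spread between such libraries.

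MicroRNAs are short RNAs that guide an Argonaute protein to messenger RNAs, mostly through a match between bases near the 5′ end of the microRNA, the seed, and the 3′ untranslated region of the message. The bound message is translated less and degraded faster, so a message that a microRNA targets directly can accumulate when the microRNA is lost. In the worm miR-51 is an orthologue of the ancient microRNA miR-100, and the members of its family share a seed. The study holds that the other members probably arose by convergent evolution. Worms without any member of the family die as embryos or young larvae. Predicted targets of the family include enzymes that sulfate heparan sulfate, a sugar chain on cell surface and matrix proteins that binds secreted signals, and ligands and receptors of the Wnt, Notch and ephrin pathways.

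Messages were measured by QuantSeq, a method that starts from the poly(A) tail, so that reads pile up at the 3′ ends of messages whatever their length. Reads assigned to genes numbered 1651557 and 2111405 in the wild-type bean libraries and 2062598 and 5247535 in the null ones, and 7814 to 9373 genes had at least 1 read. Levels are given as counts scaled to a common library total of 1000000 (CPM) on library sizes scaled by the TMM method, always for replicate 1 and then replicate 2. Reads of genes present in few copies were clumped, as when 1 captured molecule is read many times. Under the assumption that this is the case, 116188 to 250705 molecules per library lay behind the reads. On that estimate 3 molecules summed over both libraries of a genotype equal 8.49 CPM for the wild-type and 9.38 CPM for the null pair, and this was the floor below which 0 reads show no absence. Floors and intervals cover counting error only. Across genes, Spearman's rho was 0.884 between the wild-type libraries, 0.868 between the null ones and 0.818 to 0.878 between genotypes, which describes the libraries and is no test.

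Embryonic tissues were present in all 4 libraries, while RNAs from the mother differed between genotypes. Genes of muscle summed to 2815 and 2971 CPM in the wild-type and 3758 and 3469 CPM in the null libraries. For the pharynx, or feeding organ, the sums were 576 and 667 CPM against 938 and 1000 CPM. Gut genes gave 162 and 201 CPM against 232 and 160 CPM. Within the pharynx list the myosin genes myo-1 and myo-2 and the troponin gene tni-4 had reads in null replicate 1 alone, as did the neuronal vesicle gene snt-1 and the kinesin gene unc-104. Vitellogenins, yolk proteins that the adult makes, summed to 257 and 185 CPM in the wild-type libraries and 20.6 and 0.447 CPM in the null libraries. All 6 vitellogenin genes were lower in both null libraries, and 5 of them had an unadjusted p under 0.05, against 3.56% of all genes tested. Over the whole series the vitellogenin sum was 185 to 4275 CPM in every wild-type library and 0 to 40.7 CPM in every null library. Messages that the egg receives from the germ line summed to 2543 and 3357 CPM in the wild-type libraries against 1181 and 122 CPM in the null libraries. Null replicate 2 stood apart from null replicate 1 in this list, and the part of maternal RNA in the results that follow was not tested beyond the values given beside them.

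The microRNA genes themselves have no values in the count files, so the genes within 10 kb of them were examined. The aldehyde dehydrogenase gene alh-3 lies on chromosome IV (11022603 to 11025870, plus strand, WBcel235) and ends 143 bases from mir-51 (11026013 to 11026112). Its level was 96.7 and 56.7 CPM in wild-type embryos and 0 and 0.223 CPM in null embryos, so the genotypes did not overlap. About 25 estimated molecules in wild-type and 1 read, taken as 1 molecule, in null embryos gave a level 22.6 times higher in wild type, with an exact 95% counting interval of 3.70 to 929. By the quasi-likelihood test of edgeR, with Benjamini-Hochberg adjustment over all genes tested, alh-3 was lower in null embryos (adjusted p = 0.002), and it was called under 9 of 9 other settings (adjusted p 1.55e-09 to 0.0195) and with any bean library but wild-type replicate 1 left out, where the adjusted p was 0.0642. At the 2-fold stage alh-3 was at 213 and 184 CPM in wild-type and still had reads in null embryos, at 8.93 and 8.44 CPM (log2 fold change −4.51, adjusted p = 0.00502 by the same test). At the bean stage none of the other genes within 10 kb of a deleted microRNA gene was called. The sequence of the fosmid was not used here, so which genes it spans is unknown. Beside the miR-54 cluster on chromosome X, mob-2, a Mob-family kinase regulator, stood at 81.4 and 71.2 CPM in wild-type and 167 and 139 CPM in null embryos (adjusted p = 0.757). F09A5.3, which overlaps mir-54, was at 7.96 CPM in wild-type replicate 1 (adjusted p = 0.753) and F09A5.2 at 4.98 CPM in wild-type replicate 2 (adjusted p = 0.787), and neither had a read in the other 3 bean libraries.

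Over the whole transcriptome few genes passed the test at the bean stage. A gene was called at an adjusted p under 0.05, and 8 of 12062 genes tested passed (0.0663%), of which 6 rose (0.0497%) and 2 fell (0.0166%) in null embryos. At an unadjusted p under 0.05 there were 447 higher (3.71%) and 430 lower (3.56%) genes. Both null libraries lay above both wild-type libraries at 17.1% of genes and below them at 16.7%. The count of called genes rested on the libraries used. It was 94 without null replicate 1, 8 without null replicate 2, 2 without wild-type replicate 2 and 0 without wild-type replicate 1, where 487 genes still had an unadjusted p under 0.05. With counts divided by the estimated reads per molecule, 51 genes were higher and 55 lower, and DESeq2 called 25 higher and 34 lower.

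**Figure D1:**
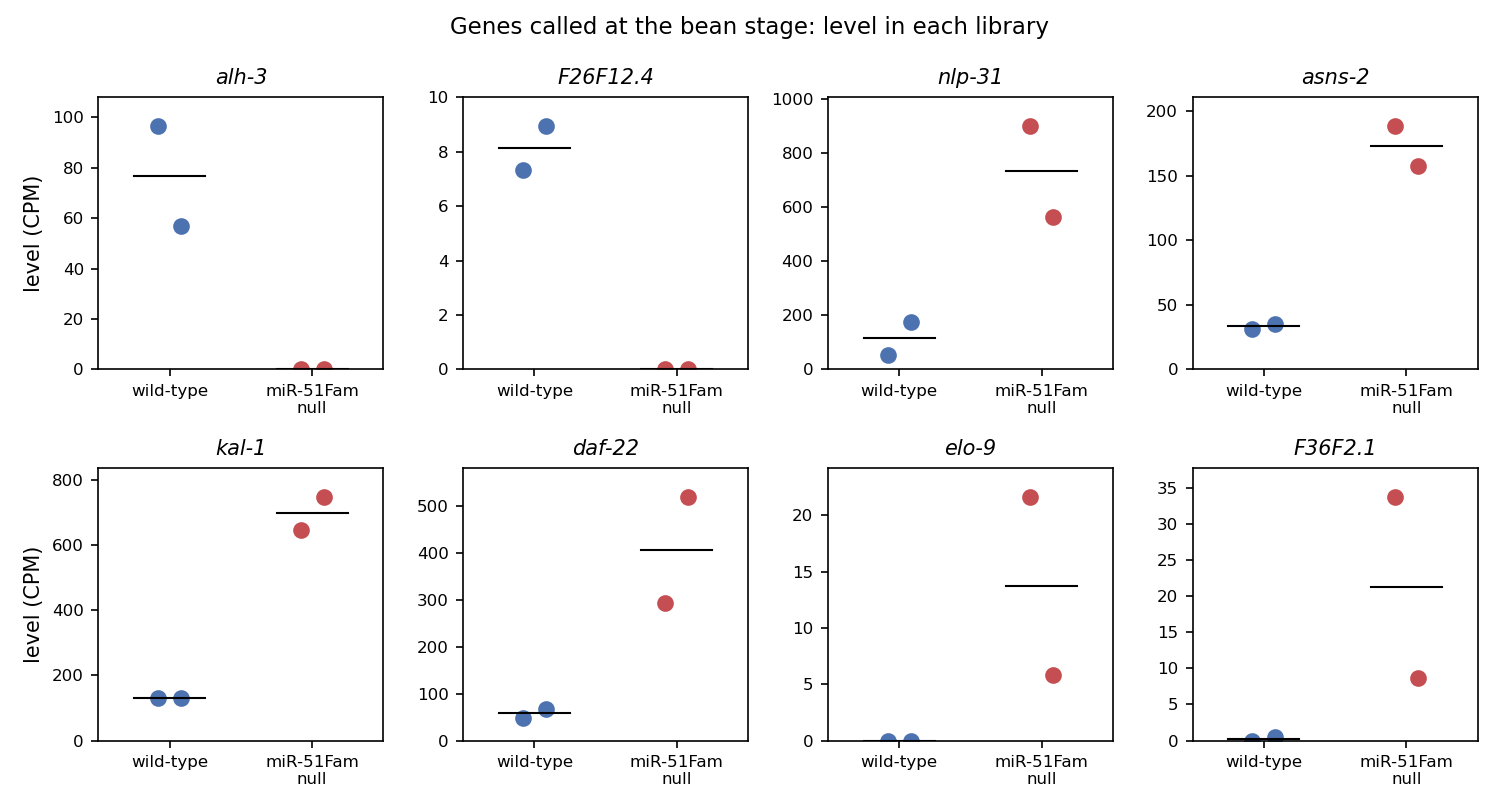
Level of the 8 called genes in each bean library, in CPM on axes that start at 0, with blue points for wild-type and red points for miR-51Fam null libraries and a black line at the mean of each pair. The 2 points of a genotype never overlap those of the other genotype, and elo-9, F36F2.1 and F26F12.4 lie at the lowest levels.

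Of the genes that rose, kal-1 is a predicted target of the family. It encodes the worm homologue of anosmin-1, a secreted matrix protein that binds heparan sulfate and acts in closure of the epidermis and in neurite branching. The gene (chromosome I, 14128591 to 14142207) stood at 131 and 130 CPM in wild-type and 646 and 747 CPM in null embryos. The lowest null value was several times the highest wild-type value, and each pair was tight. The log2 fold change was 2.41 (SE 0.45, adjusted p = 0.0280), and at the 2-fold stage it was 2.86 (SE 0.47, adjusted p = 0.000487). At the bean stage the call held under 8 of 9 other settings (adjusted p 7.02e-15 to 0.0585). With 1 bean library left out the log2 fold change was 2.31 to 2.51, and the call held in 1 of 4 cases, without null replicate 1 (adjusted p = 0.0269). It was lost without null replicate 2 (adjusted p = 0.214), wild-type replicate 1 (0.505) and wild-type replicate 2 (0.212).

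The gene asns-2, which encodes an asparagine synthetase, and daf-22, which encodes the thiolase that ends each round of peroxisomal β-oxidation and so trims fatty acids for ascaroside pheromones, rose as well. The level of asns-2 (chromosome X, 8748434 to 8750941) was 31.2 and 35.3 CPM in wild-type and 189 and 158 CPM in null embryos (log2 fold change 2.38, SE 0.44, adjusted p = 0.0280). That of daf-22 (chromosome II, 12423518 to 12425694) was 48.4 and 67.2 CPM against 292 and 519 CPM (2.81, SE 0.56, adjusted p = 0.0394). Both genes were well apart between genotypes, with the wider spread in the null libraries for daf-22. At the 2-fold stage asns-2 reached 1805 and 1373 CPM in null embryos against 53.6 and 42.5 CPM in wild-type embryos, and the change there was larger than at the bean stage by the interaction test (difference −2.66, adjusted p = 0.0482).

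The small peptide gene nlp-31 (chromosome V, 3980055 to 3980622), which encodes an antimicrobial peptide of the epidermis, was at 54.5 and 176 CPM in wild-type and 901 and 563 CPM in null embryos (log2 fold change 2.66, SE 0.47, adjusted p = 0.0195). The wild-type libraries differed from each other more than at the genes above. Its wild-type level passed from 708 and 1071 CPM at the 190-cell stage to 18.6 and 24.3 CPM at the 2-fold stage, with the bean stage between, while null embryos stood at 692 and 683 CPM at the 190-cell stage, the former in the library of 11081 reads, and at 292 and 325 CPM at the 2-fold stage, above wild type there as well (log2 fold change 3.88, SE 0.51, adjusted p = 3.60e-05). Null bean embryos thus lay near the 190-cell level of both genotypes, and wild-type bean embryos between that level and the 2-fold level.

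The other called genes were near the floor. The fatty acid elongase gene elo-9 (chromosome II, 14959526 to 14964108) had no read in wild-type embryos and 21.6 and 5.81 CPM in null embryos, which makes it at least 1.62-fold higher against the floor (adjusted p = 0.0352). F36F2.1 (chromosome I, 9018670 to 9020304) had 0 and 0.498 CPM in wild-type and 33.8 and 8.71 CPM in null embryos, about 7 molecules against 1, a ratio of 7.74 with a counting interval of 0.994 to 349 (adjusted p = 0.0406). F26F12.4 (chromosome V, 5866134 to 5869327) had 7.35 and 8.96 CPM in wild-type and no reads in null embryos (adjusted p = 0.0195), but its wild-type mean of 8.15 CPM lay under the null floor, so the 0 reads show no loss. For elo-9 and F36F2.1 the null level at the bean stage lay between that of wild-type bean embryos and that of wild-type embryos at the 2-fold stage, where elo-9 was at 112 and 60.6 CPM and F36F2.1 at 100 and 67.9 CPM. In wild-type embryos at the 190-cell stage elo-9 was at 37.0 and 13.7 CPM, so its wild-type level at the bean stage lay below both other stages. F36F2.1 had no read there. Of 9 other settings, the call of nlp-31 and of asns-2 held under 8, that of daf-22 under 7, that of F26F12.4 under 6 and those of elo-9 and F36F2.1 under 5, with an adjusted p of up to 0.654 (F26F12.4). The filter of at least 10 CPM in 2 bean libraries removed F26F12.4, elo-9 and F36F2.1. That setting did not test them and is counted here as not held. With 1 bean library left out, the call of nlp-31 held in 3 of 4 cases, that of elo-9 in 2 and those of asns-2, daf-22, F26F12.4 and F36F2.1 in 1. All 6 were lost without wild-type replicate 1 (adjusted p 0.124 to 0.561), and without wild-type replicate 2 all but nlp-31 were lost (0.0700 to 0.228). Without null replicate 2 the calls of asns-2 (0.0727), daf-22 (0.355) and F26F12.4 (0.289) were lost, and without null replicate 1 that of F36F2.1 (0.0685).

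Genes that the study marks as TargetScan predictions for the family are described here beside all genes tested, without a test of the list. TargetScan searches 3′ untranslated regions for conserved seed matches. The 206 marked genes tested come from the study's own table of these libraries, so they had to be detected in them and are not an independent choice, although the mark itself rests on sequence. Of these, 35 (17.0%) were higher and 7 (3.40%) lower at an unadjusted p under 0.05, against 3.71% and 3.56% of all genes tested, and kal-1 alone was called. Both null libraries lay above both wild-type libraries at 96 of the 206 and below them at 13, where over all genes tested the shares were 17.1% and 16.7%. The median log2 fold change was 0.63, or 0.38 with genes that had no reads in a genotype set at their bound, against 0 over all genes. Restricted to genes with reads in both genotypes, 74.9% of 171 predicted targets and 52.2% of 8514 genes had a fold change above 0, and 35.7% and 18.0% exceeded 1. Summed over the list, the level was 11230 and 11690 CPM in wild-type and 18630 and 19830 CPM in null embryos. In whole embryos fewer cells of a type and less RNA per cell cannot be told apart. The share of predicted targets at an unadjusted p under 0.05 and higher was 12.1% to 22.1% under 9 other settings, against 3% to 6.22% of all genes. With a bean library left out their median log2 fold change was 0.45 to 0.82, against 0 over all genes. The share was 5.34%, against 2.76% of all genes, when the summed vitellogenin level entered the fit as a covariate. That setting was chosen after the data were seen, and in it that level parts the genotypes completely.

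**Figure D2:**
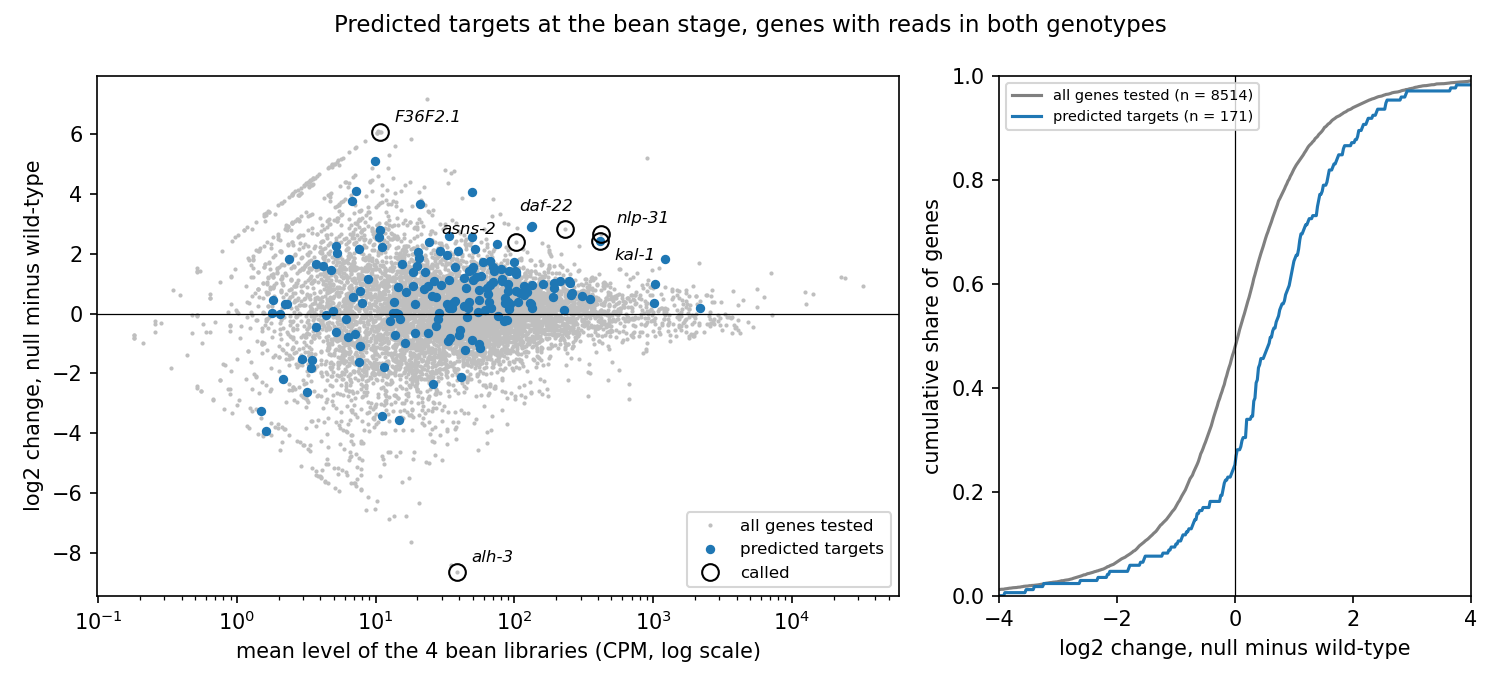
Left, log2 fold change (null minus wild-type) against the mean level of the 4 bean libraries in CPM on a log axis, for genes with reads in both genotypes, with predicted targets in blue and called genes ringed. Right, cumulative share of genes by log2 fold change, where the curve of the 171 predicted targets lies to the right of that of all 8514 genes, with 74.9% and 52.2% above 0.

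Among the predicted targets with the smallest p that were not called were Y65A5A.1, C02D5.2 and the heme transporter gene hrg-1. Y65A5A.1 stood at 618 and 446 CPM in wild-type and 1698 and 2096 CPM in null embryos (adjusted p = 0.0686), C02D5.2 at 19.6 and 42.8 CPM against 212 and 255 CPM (adjusted p = 0.107) and hrg-1 at 14.7 and 34.8 CPM against 124 and 126 CPM (adjusted p = 0.351). At each of the 3 genes the null pair lay well above the wild-type pair. Other predicted targets with an unadjusted p under 0.05, picked for known roles after their values were seen, were dep-1, a receptor tyrosine phosphatase gene, at 165 and 109 CPM against 292 and 293 CPM, vhp-1, a MAP kinase phosphatase gene, at 4.28 and 32.9 CPM against 109 and 60.3 CPM, and lnkn-1, which encodes a transmembrane adhesion protein, at 34.9 and 49.8 CPM against 132 and 105 CPM. Of lipid enzymes, the acyltransferase gene acl-4 was at 56.3 and 52.8 CPM in wild-type and 134 and 158 CPM in null embryos, the acyl-CoA synthetase gene acs-13 at 32.4 and 66.7 CPM against 177 and 88.9 CPM, and the diacylglycerol acyltransferase gene dgat-2 at 0 in both wild-type libraries and 15.3 and 17.0 CPM in null embryos. At all of these genes the null pair lay above the wild-type pair. Their choice by p from the higher genes, like that of the 3 above, favours such a gap, so it adds no support. The predicted target that lay lower with the smallest p was B0393.5, at 19.6 and 34.4 CPM in wild-type and 2.64 and 2.01 CPM in null embryos (adjusted p = 0.107). The other 6 lower at an unadjusted p under 0.05 included egg-6, which encodes a protein of the apical matrix, at 97.3 and 36.3 CPM against 24.3 and 6.93 CPM (adjusted p = 0.656). The lipocalin gene lpr-1 was at 0 and 5.97 CPM against 0.528 and 0 CPM. The rest had no read in null embryos. In wild-type embryos ZK418.7 was at 24.5 and 0 CPM, K08E4.3 at 10.4 and 19.9 CPM, C07A9.12 at 8.57 and 0 CPM and T10G3.3 at 0 and 3.98 CPM. The wild-type means of C07A9.12 and T10G3.3 lay under the null floor of 9.38 CPM, so their 0 reads show no loss. Against that floor ZK418.7 was at least 1.3-fold and K08E4.3 at least 1.62-fold lower.

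The 14 predicted targets that the study discusses by pathway lay mostly above wild type. In 9 of them both null libraries exceeded both wild-type libraries and in none did both lie below, against 17.1% and 16.7% of all genes tested. At an unadjusted p under 0.05 there were 5 higher (35.7%, against 3.71% of all genes) and 0 lower. Their median log2 fold change was 1.36 (1.19 with hst-3.2 at its bound), and their summed level was 549 and 661 CPM in wild-type and 1616 and 1783 CPM in null embryos. Here too kal-1 was the only called gene. The study introduced most of these genes from sequence predictions. It added eff-1 for its higher level in null embryos, its role in membrane remodelling and its binding to the spectraplakin VAB-10A. From reporters at the endogenous genes and mutated miR-51 sites, the study holds kal-1, lin-12 and hst-3.2 to be direct targets. The 14 genes were gathered here with earlier results of these data known, so their direction is not independent evidence.

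Among receptors and ligands, lin-12, which encodes a Notch receptor, stood at 0 and 10.9 CPM in wild-type and 81.3 and 108 CPM in null embryos (log2 fold change 4.07, SE 1.10, adjusted p = 0.207). It passed the test under 4 of 9 other settings (adjusted p 5.08e-05 to 0.268) and in 0 of 4 cases with a bean library left out. The Frizzled gene mig-1, a Wnt receptor, was at 40.4 and 72.2 CPM against 125 and 173 CPM (adjusted p = 0.921), without overlap between the genotypes. For lin-17, another Frizzled gene, 91.2 and 64.2 CPM in wild-type overlapped with 79.2 and 126 CPM in null embryos. Ephrins are membrane ligands that steer cells during closure of the embryo, and efn-2 was at 56.9 and 61.2 CPM in wild-type and 147 in both null libraries (1.31, adjusted p = 0.678). The other ephrin genes were at 37.3 and 82.1 CPM against 125 and 113 CPM for efn-4, apart, and at 82.6 and 91.1 CPM against 112 and 79.1 CPM for vab-2, which overlapped. The atypical cadherin gene cdh-3, active in epithelia, lay at 15.9 and 21.9 CPM in wild-type and 66.0 and 45.6 CPM in null embryos (1.55, SE 0.59, adjusted p = 0.530).

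Among the enzymes that modify heparan sulfate, hst-6, whose product adds sulfate at the 6-O position, was at 42.9 and 47.8 CPM in wild-type and 90.2 and 99.9 CPM in null embryos (log2 fold change 1.07, SE 0.83, adjusted p = 0.800). The N-sulfotransferase gene hst-1 was at 5.51 and 46.3 CPM against 72.3 and 74.4 CPM. In both genes the null pair was tight and above the wild-type pair. The 3-O sulfotransferase gene hst-3.2 had reads in null replicate 2 alone, at 16.8 CPM, and hst-3.1, of the same activity and not among the 14, was at 0 and 7.96 CPM in wild-type and 20.6 and 67.2 CPM in null embryos. For hst-2, which acts at the 2-O position, 42.2 and 21.4 CPM in wild-type overlapped with 34.3 and 46.9 CPM in null embryos. The body length regulator gene lon-1 was low, at 0 and 5.97 CPM against 29.0 and 7.37 CPM, and eff-1, which encodes the protein that fuses epidermal cells, was at 3.06 and 5.47 CPM against 8.44 and 0.447 CPM. With the summed vitellogenin level in the fit the fold changes of hst-2, mig-1, lin-17 and vab-2 were −0.18, −0.51, −1.43 and −0.67, opposite to those without it. That of kal-1 was 2.02 (adjusted p = 0.384). The vitellogenin level parts the genotypes completely, so in these values its part and that of genotype cannot be told apart.

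**Figure D3:**
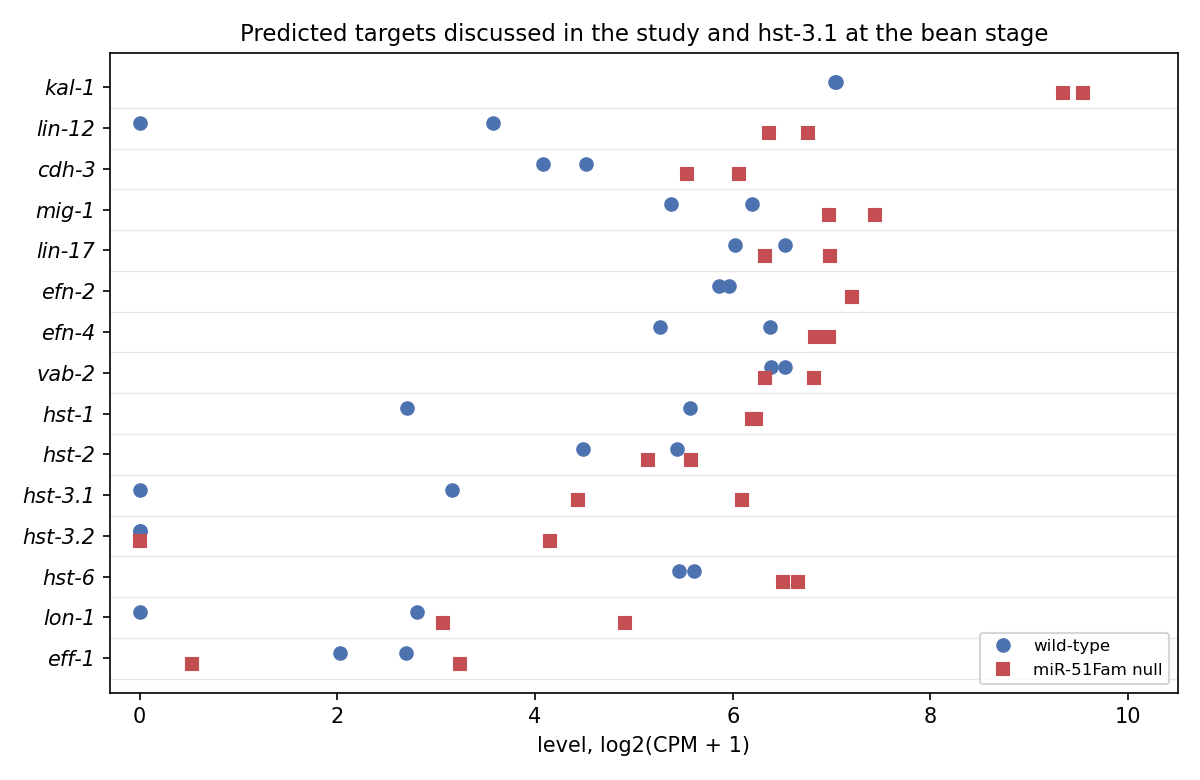
Level of the 14 predicted targets that the study discusses, and of hst-3.1, in each bean library, as log2(CPM + 1), with blue points for wild-type and red squares for miR-51Fam null libraries. The null pair lies wholly to the right at kal-1, lin-12, cdh-3, mig-1, efn-2, efn-4, hst-1, hst-6, lon-1 and hst-3.1, and the genotypes overlap or tie at lin-17, vab-2, hst-2, hst-3.2 and eff-1.

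The rest of the same pathways held no other called gene. Of 24 genes of heparan sulfate synthesis and its core proteins, 2 (kal-1 and hst-3.2, 8.33%) were higher and 0 lower at an unadjusted p under 0.05, against 3.71% and 3.56% of all genes tested. Their fold changes were above 0 in 17 and below in 7, with a median of 0.81, or 0.49 with the genes without reads in a genotype at their bound. Of 27 Wnt genes, 3 (11.1%, against 3.71% of all genes) were higher and 0 lower at that p, with a median of 0.40. They were the ligand gene cwn-1, at 53.9 and 63.2 CPM in wild-type and 141 and 200 CPM in null embryos, apr-1, which encodes the worm APC protein, at 39.8 and 104 CPM against 169 and 218 CPM, and lin-18, which encodes a Ryk receptor, with no wild-type reads and 5.80 and 11.6 CPM in null embryos. Of 14 Notch genes tested, lin-12 was higher and the other receptor gene, glp-1, lower at that p, with glp-1 at 87.5 and 85.1 CPM in wild-type and 23.2 and 19.2 CPM in null embryos. The message of glp-1 is laid down by the mother. This gene was not called (adjusted p = 0.559), and the part of maternal RNA in its lower level was not tested. Among 9 ephrin and semaphorin genes 8 fold changes were above 0 (median 0.48), with efn-2 alone under an unadjusted p of 0.05. In the netrin and Slit list (10 genes, median 0.54) that gene was slt-1, which encodes the Slit ligand, at 1.22 and 5.48 CPM in wild-type and 28.0 and 28.8 CPM in null embryos (adjusted p = 0.126).

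Genes of the basement membrane and of the endoplasmic reticulum lay mostly above wild type, while other matrix lists were mixed. The basement membrane is the sheet of laminin and type IV collagen under epidermis and muscle. Of its 15 genes 14 had a fold change above 0, with a median of 0.67 against 0 for all genes, and the summed level was 4334 and 4231 CPM in wild-type against 6734 and 6971 CPM in null embryos. At an unadjusted p under 0.05 were lam-2, which encodes the laminin γ chain, at 590 and 554 CPM against 1196 and 1016 CPM, and let-2, which encodes a type IV collagen chain, at 249 and 173 CPM against 453 and 372 CPM. In both genes the null pair lay above the wild-type pair, and neither was called (adjusted p = 0.584 and 0.643). The apical matrix is the layer outside the epidermis and the tubes it lines, and of its 11 genes 3 were higher (27.3%) and 2 lower (18.2%) at an unadjusted p under 0.05, against 3.71% and 3.56% of all genes tested. The higher ones were sym-1, at 588 and 735 CPM in wild-type and 1139 and 1335 CPM in null embryos, dex-1 and lpr-3, and the lower ones were lpr-1 and egg-6. The 85 tested genes of cuticle collagens, a list added after values were seen, had 3 higher (3.53%) and 8 lower (9.41%) at that p and a median of 0. Of the 85, 41 had reads in only 1 genotype. Without overlap 3 were higher and 19 lower, against 17.1% and 16.7% of all genes tested. Of the lower ones col-19 was at 18.4 and 21.9 CPM in wild-type and at 0 in both null libraries. The part of RNA from the mother in the lower collagens was not tested. Of 18 genes of protein folding and stress in the endoplasmic reticulum, 5 were higher (27.8%, against 3.71% of all genes) and 0 lower at an unadjusted p under 0.05, with a median of 0.65 and a summed level of 11480 and 11380 CPM against 18110 and 20040 CPM. The disulfide isomerase gene pdi-2 was at 3904 and 4241 CPM in wild-type and 6971 and 7269 CPM in null embryos, and crt-1, the calreticulin gene, at 3097 and 2524 CPM against 4156 and 5346 CPM. By contrast hsp-4, the BiP gene that the unfolded protein response induces, was at 7.35 and 21.9 CPM in wild-type and 24.3 and 8.71 CPM in null embryos, which overlapped. With the vitellogenin level in the fit the fold change of pdi-2 was −0.07, but that level parts the genotypes completely and cannot be told apart from genotype.

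The machinery that drives the lengthening of the embryo held no called gene. Of 18 genes of the epidermal actomyosin pathway 1 (5.56%, against 3.71% of all genes) was higher and 0 lower at an unadjusted p under 0.05, with 10 fold changes above 0 and 8 below and a median of 0.14. That gene was rhgf-2, which encodes a guanine nucleotide exchange factor needed for elongation, at 12.9 and 28.9 CPM in wild-type and 47.0 and 110 CPM in null embryos (adjusted p = 0.139). The kinase gene let-502, of the same pathway, was at 56.9 and 138 CPM against 96.6 and 69.5 CPM. Genes of the apical junction had 13 fold changes above 0 and 4 below (17 genes, median 0.42) with no unadjusted p under 0.05. Of 8 hemidesmosome genes, which tie epidermis to muscle, pat-12 was lower at that p, at 41.0 and 30.9 CPM in wild-type and 4.22 and 7.37 CPM in null embryos. Of 29 muscle genes, dim-1 and the myosin heavy chain gene unc-54 were higher at that p (6.90% of the list). Of 11 epidermal fate genes 0 had an unadjusted p under 0.05 in either direction, and the same held for 18 cell death genes, split 9 above and 9 below 0.

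**Figure D4:**
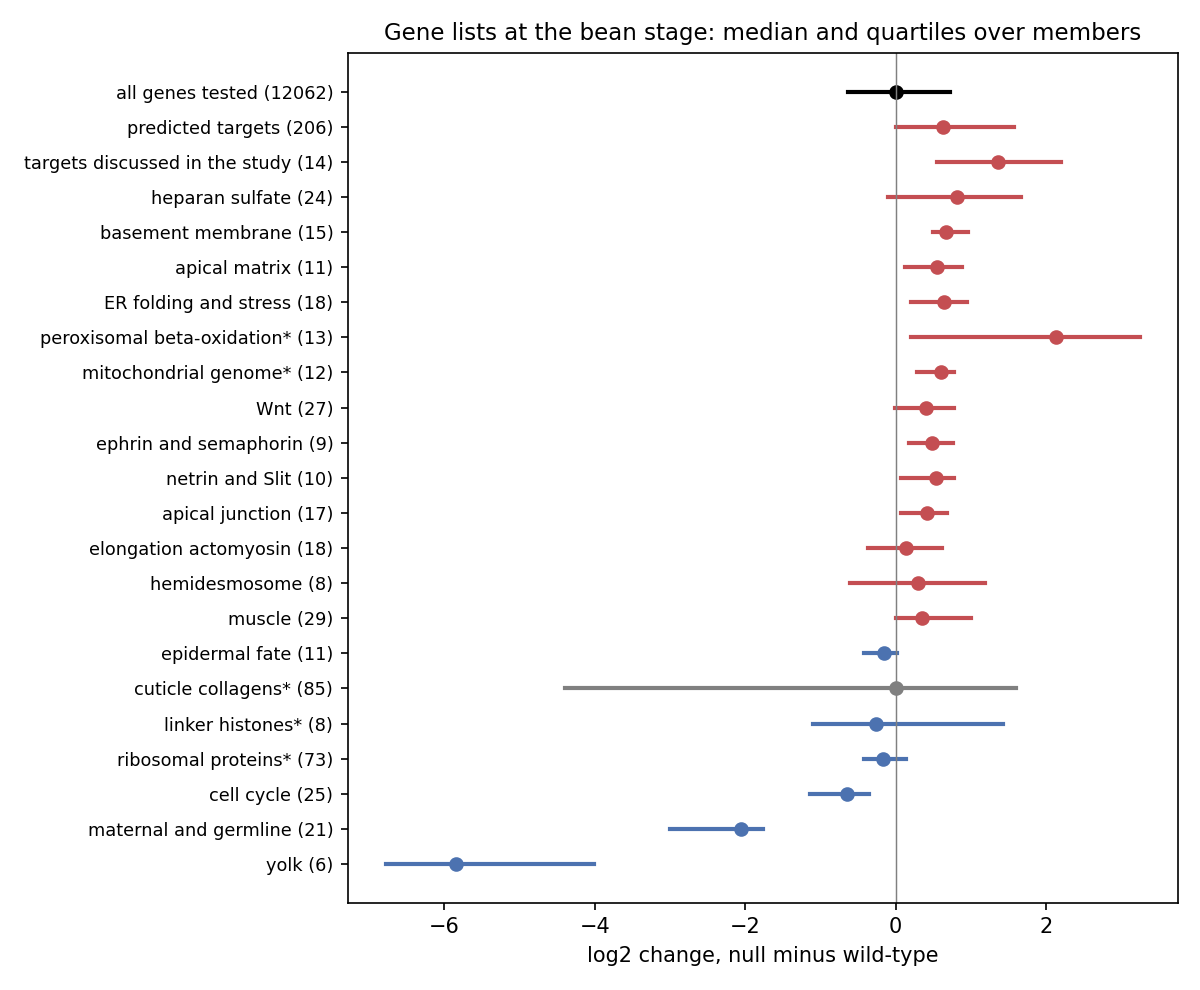
Median (point) and quartiles (line) of the log2 fold change, null minus wild-type, over the tested members of gene lists at the bean stage, with the number of members in parentheses and all 12062 genes in black. An asterisk marks a list chosen after its values were seen, red marks a median above 0, blue a median below 0 and grey a median of 0, and the yolk list lies farthest below 0 at −5.84, followed by the maternal and germline list at −2.06.

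Genes of peroxisomal β-oxidation, chosen as a list after daf-22 was seen, lay higher together. The pathway shortens fatty acids in steps, and the genes for successive enzymes were acox-1.1 (acyl-CoA oxidase) at 17.1 and 9.46 CPM in wild-type and 102 and 150 CPM in null embryos, maoc-1 (enoyl-CoA hydratase) at 79.0 and 60.2 CPM against 218 and 356 CPM, and dhs-28 (dehydrogenase) at 58.2 and 74.7 CPM against 282 and 301 CPM. In all 3 the null pair was clear of the wild-type pair. None was called (adjusted p = 0.224, 0.1996 and 0.111), but dhs-28 was called under 7 of 9 other settings (adjusted p 1.19e-06 to 0.136) and in 0 of 4 cases with a bean library left out. The list summed to 282 and 359 CPM in wild-type and 1143 and 1554 CPM in null embryos, and its median log2 fold change of 2.13 became 0.21 with the members without reads in a genotype at their bound.

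The other genes of epidermal antimicrobial peptides were uneven between the null libraries. Of 22 members, 16 had no read in either wild-type library, and 12 and 15 had none in the null libraries. Most of the reads beside those of nlp-31 came from cnc-10, at 423 and 372 CPM in wild-type and 372 and 456 CPM in null embryos, which overlapped. The gene nlp-29 was at 3.67 and 2.49 CPM in wild-type and 108 and 20.1 CPM in null embryos (adjusted p = 0.108), nlp-33 at 0 and 3.98 CPM against 108 and 13.4 CPM, and nlp-34 at a mean of 10.7 CPM in wild-type against 86.0 and 20.6 CPM. Both null libraries lay above wild type at these 3 genes, and null replicate 1 was the higher. In contrast nlp-28, cnc-4 and cnc-6 had reads in null replicate 1 alone. Genes of this family lie side by side and resemble each other, so how reads were shared among them is uncertain.

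Messages of the mitochondrial genome, looked at after their values were seen, lay higher, and those of linker histones, looked at likewise, went both ways. Of 12 mitochondrial genes 5 were higher (41.7%, against 3.71% of all genes) and 0 lower at an unadjusted p under 0.05, and their sum was 104800 and 86400 CPM in wild-type and 147000 and 196500 CPM in null embryos. COX3, a cytochrome oxidase subunit gene, stood at 14330 and 12740 CPM against 29920 and 33220 CPM (adjusted p = 0.176). The linker histone gene his-24 was at 3868 and 4069 CPM against 8582 and 11750 CPM (adjusted p = 0.139), and hil-3 at 964 and 1057 CPM against 2507 and 3996 CPM (adjusted p = 0.107). Null replicate 2 was the higher of the null pair at all 3 genes. Of the 8 linker histone genes tested these were the 2 higher without overlap, and 4 were lower, among them hil-5 at 316 and 370 CPM in wild-type and 187 and 86.9 CPM in null embryos (adjusted p = 0.621) and hil-7 at 4523 and 4562 CPM against 2997 and 3454 CPM. The median over the 8 was −0.27. The 73 ribosomal protein genes summed to 148100 and 163200 CPM in wild-type and 132600 and 148500 CPM in null embryos, which overlapped. Gene by gene 36 of the 73 were lower and 17 higher without overlap, against 16.7% and 17.1% of all genes tested, 5 were lower and 1 higher at an unadjusted p under 0.05, and the median was −0.17.

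Maternal and cell cycle messages lay below wild type. Of 21 maternal and germline genes all 21 had a fold change below 0, with a median of −2.06, and 5 (23.8%, against 3.56% of all genes) had an unadjusted p under 0.05. The germ granule gene pgl-1 was at 166 and 253 CPM in wild-type and 38.0 and 14.97 CPM in null embryos, nos-2, which encodes a Nanos protein of the primordial germ cells, at 124 and 206 CPM against 20.6 and 5.81 CPM, and pos-1, which encodes a maternal regulator of translation, at 642 and 904 CPM against 335 and 0.894 CPM. The null libraries lay below both wild-type libraries at each, and at pos-1 they differed from each other by far more than the wild-type libraries did. Of 25 cell cycle genes 22 had a fold change below 0 (median −0.65), with rnr-2, the small subunit gene of ribonucleotide reductase, at 549 and 569 CPM in wild-type and 167 and 118 CPM in null embryos (adjusted p = 0.139). The replication licensing gene mcm-5 was at 163 and 224 CPM against 85.5 and 18.5 CPM. The kinesin gene klp-7, a predicted target, went the other way, at 6.73 and 8.96 CPM against 26.9 and 38.9 CPM. Without null replicate 2 both lists were still below wild type, with sums in null replicate 1 of 1181 CPM against 2543 and 3357 CPM for the maternal list and of 3463 CPM against 5195 and 6027 CPM for the cell cycle list.

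**Figure D5:**
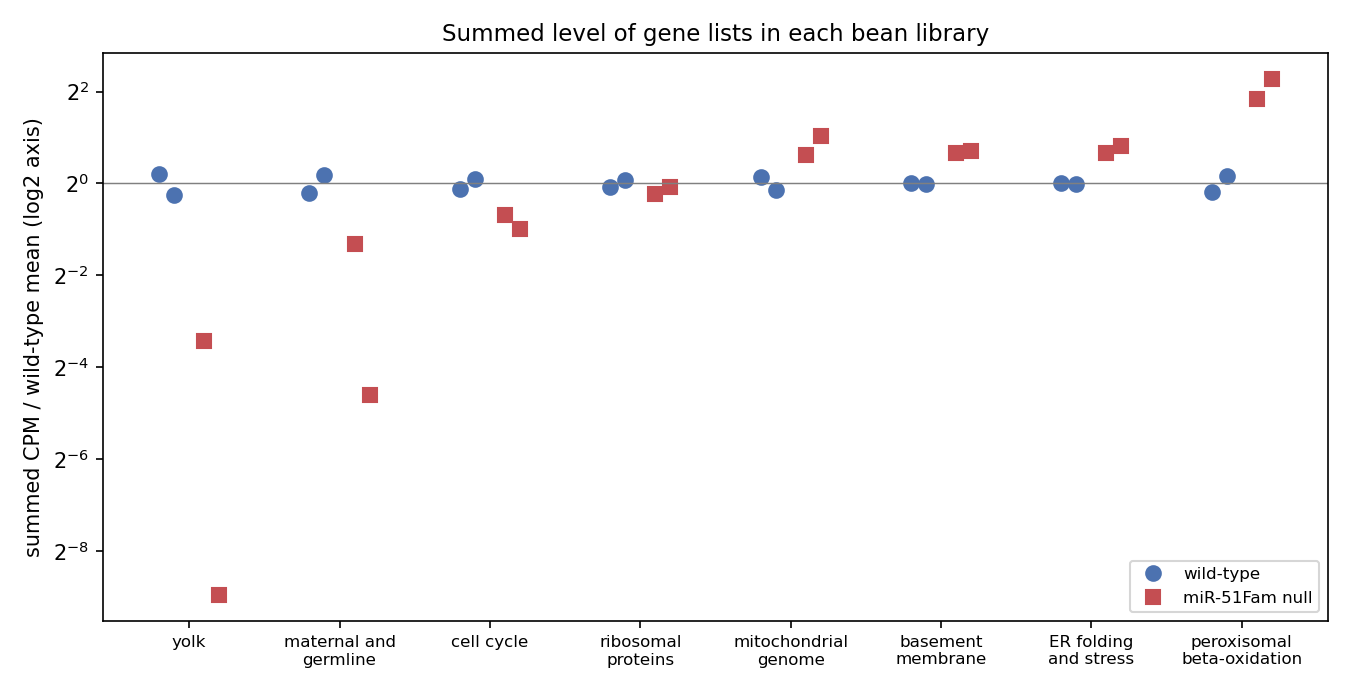
Summed CPM of 8 gene lists in each bean library divided by the mean of the wild-type libraries, on a log2 axis, with blue points for wild-type and red squares for miR-51Fam null libraries, replicate 1 to the left. The null pair lies below the wild-type pair for yolk, maternal and cell cycle genes and above it for mitochondrial, basement membrane, ER and peroxisomal genes, and it overlaps for ribosomal protein genes.

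Single genes below wild type that were not called included some without any read in null embryos. C42C1.8 was at 69.2 and 86.1 CPM in wild-type and at 0 in both null libraries, at least 8.28-fold lower against the floor (adjusted p = 0.0555), and C17E7.4 at 49.0 and 53.3 CPM against 0, at least 5.45-fold lower (adjusted p = 0.111). C17E7.4 had no read in any of the 6 null libraries of the series, and 14.3 to 53.3 CPM in the wild-type libraries. The Skp1-related gene skr-2 was at 173 and 218 CPM in wild-type and 43.8 and 15.6 CPM in null embryos (adjusted p = 0.139). On the higher side, emb-8, which encodes the NADPH reductase that serves cytochrome P450 enzymes, was at 20.2 and 20.4 CPM in wild-type and 99.2 and 222 CPM in null embryos (adjusted p = 0.0572). Y54F10BM.9 had no read in wild-type embryos and 39.1 and 41.8 CPM in null embryos, at least 4.76-fold higher (adjusted p = 0.111).

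In the microRNA pathway itself, the genes for its core proteins were mixed. Messages of ain-1, which encodes a GW182 partner of Argonaute, were at 484 and 433 CPM in wild-type and 802 and 924 CPM in null embryos (adjusted p = 0.655), and those of pab-1, the poly(A)-binding protein gene, at 94.9 and 97.1 CPM against 258 and 250 CPM (adjusted p = 0.3795). The helicase gene cgh-1, whose product represses maternal messages, was at 262 and 289 CPM against 68.1 and 19.0 CPM (adjusted p = 0.0744). The Argonaute genes alg-1 and alg-2 overlapped between genotypes. The widest difference was at pash-1, which encodes the partner of Drosha in the first cut of microRNA precursors, at 61.8 and 35.3 CPM in wild-type and 3153 and 362 CPM in null embryos (log2 fold change 5.18, SE 1.98, adjusted p = 0.643). Over the other stages it was 36.3 to 84.2 CPM in the 4 wild-type libraries, 2871 and 103 CPM in null embryos at the 2-fold stage and 40.7 and 981 CPM at the 190-cell stage, where null replicate 1 was that shallow library. The null level of pash-1 thus ranged widely within each stage, and the test across libraries called it under 1 of 9 other settings (adjusted p 6.10e-18 to 0.672).

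Position along development was compared between the bean libraries with genes called different between the 190-cell and 2-fold stages in wild-type embryos. Over the 1228 genes called higher at the 2-fold stage the median genotype difference in bean embryos was 0.06 on the log2 scale, and over the 502 called lower it was 0.19. The late genes summed to 257600 and 272300 CPM in wild-type and 247600 and 268700 CPM in null bean embryos. The early genes summed to 124900 and 129000 CPM against 128300 and 148400 CPM. The genotypes overlapped in the sums of the late genes and in those of the early genes. The medians over genes in each library did not overlap. The median deviation of log2(CPM + 1) from the mean of the 4 bean libraries, over genes with a mean of 20 CPM or more, was −0.11 and −0.015 in wild-type against 0.075 and 0.045 in null embryos for 916 late genes. For 462 early genes it was −0.041 and −0.026 against 0.0033 and 0.15. Without overlap 287 of 1228 late genes were higher and 176 lower, and 170 and 118 of 502 early genes, against 17.1% and 16.7% of all genes tested. Among genes at 20 CPM or more the median log2 fold change was 0.19 (late), 0.16 (early) and 0.05 (all). With genes without reads in a genotype at their bound it was 0.05, 0.14 and 0.03. By these medians late and early genes lay slightly higher in null embryos alike.

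The genotype difference at the bean stage departed from that at the 2-fold stage at 38 of 12062 genes (0.315%) and from that at the 190-cell stage at 11 (0.0912%), by the interaction test of edgeR. Of the former, 36 had the higher value at the bean stage. The 4 with the smallest p, looked at after their values were seen, were the phosphoethanolamine methyltransferase gene pmt-2, the condensin gene capg-2, the replication licensing gene cdt-1 and the DNA polymerase ε subunit gene pole-4. At the bean stage cdt-1 was at 162 and 194 CPM in wild-type and 121 and 123 CPM in null embryos, and capg-2 at 71.0 and 103 CPM against 73.9 and 60.5 CPM. Both had no read in either null library at the 2-fold stage.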

How the data were processed

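RNA of the 4 bean libraries, and of 8 libraries at other stages, was measured with a QuantSeq 3′ kit. Per the study's methods the authors extracted molecular identifiers with UMI-tools, trimmed adaptors and the first 4 bases, mapped reads to WBcel235 with STAR (maximum intron 50000) and counted with HTSeq. They deposited 1 table of raw counts per library, not normalised, and the DESeq2 results of the study were not used. Tool versions, annotation release and strand setting were not given in the sources used here, so genes that overlap on opposite strands may share reads. The methods describe removal of identifier duplicates before counting, but the values behave as read counts, and this was treated as open. Of the reads, 41.5% to 51.6% in the bean libraries were assigned to a gene, 40.8% to 51.9% mapped to several places and 5.46% to 7.53% fell outside genes; the latter 2 classes stayed out of library sizes and tests. Symbols and positions of 20115 of 20362 genes came from an Ensembl annotation of WBcel235.

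Genes with 20 or more counts over 12 libraries were fitted in edgeR 4.0.16 (R 4.3.3) with a mean for each of 6 groups, TMM scaling and a two-sided quasi-likelihood F test with robust dispersions and Benjamini-Hochberg adjustment. Standard errors were derived from the F statistic. Reads per molecule were estimated in each library from genes that averaged 1 to 3 CPM elsewhere in the series, by the share of them without a read. DESeq2 1.42.0 and other settings served as alternatives. The fit was also run on simulated counts with known changes, as a check of the fold changes, and no error rate is drawn from it here. An exact permutation test of 2 libraries against 2 cannot go below 0.333.

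Members and gene lists were chosen with earlier results of these data known. Named were the called genes, the 14 targets the study discusses and hst-3.1, genes within 10 kb of a deleted microRNA gene, the next 10 genes in each direction without overlap and with a mean of at least 10 CPM in the higher genotype, up to 4 genes per list by p, and predicted targets with an unadjusted p under 0.05. Other genes named were members of the same lists picked to show a role, after their values were seen. The lists of peroxisomal, mitochondrial, linker histone, ribosomal protein and collagen genes were added after values were seen. The study's predicted targets were taken as marked in its table, without its values. Sequences were not used here, so no seed matches were counted.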

Additional observations from a re-analysis of the deposited data

Results flagged for a closer look

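The genotype difference (null minus wild-type, log2 scale) was not the same at the bean stage and at another stage for 7 of the named genes, by the interaction test of edgeR's quasi-likelihood fit. For F26F12.4 it was −7.58 at the bean and −0.08 at the 2-fold stage, a difference of −7.50 (adjusted p = 0.0213), with 184 and 197 CPM in null embryos at the 2-fold stage. At the bean stage this gene had no read in null embryos, and its wild-type mean of 8.15 CPM lay under the null floor of 9.38 CPM. The size of its difference thus rests on a fitted value and shows no loss. For asns-2 it was 2.38 and 5.03, a difference of −2.66 (adjusted p = 0.0482). For the type IV collagen gene let-2 it was 0.96 at the bean and −5.38 at the 190-cell stage, a difference of 6.35 (adjusted p = 0.0135). At the 190-cell stage let-2 was at 38.5 and 9.54 CPM in wild-type and 0 and 0.561 CPM in null embryos, and the library at 0 held 11081 reads. The vitellogenin sum at that stage was 4275 and 548 CPM in wild-type and 40.7 and 3.37 CPM in null embryos. The part of maternal RNA in the let-2 difference was not tested.

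For pmt-2, capg-2, cdt-1 and pole-4 the bean and 2-fold stages differed by 9.37, 10.31, 9.26 and 9.17 (adjusted p = 0.000225, 0.000225, 0.00043 and 0.000948). These 4 had no reads in either null library at the 2-fold stage, so the sizes rest on fitted values and are no bounds. Wild-type levels at that stage were 12 to 102 CPM. At the bean stage pmt-2 was at 39.8 and 50.8 CPM in wild-type and 47.0 and 77.1 CPM in null embryos, and pole-4 at 69.8 and 127 CPM against 89.7 and 126 CPM.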

How the results depend on the processing

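With 2 libraries a genotype, the count of calls at the bean stage moved with every setting tried but leaving out null replicate 2, and there the called genes were the same only in part. The direction of the 8 called genes did not change in any setting in which they were tested. Instead of 8 calls there were 1 with at least 10 CPM in 2 bean libraries, 24 without the shallowest library of the series, 59 with DESeq2, 28 with RLE size factors, 5 with TMMwsp, 349 from the bean libraries alone, 106 with molecule-scaled counts, 130 with no filter, 23 with the vitellogenin sum as covariate (added after the data were seen; median of all genes −0.12) and 0 to 94 with a bean library left out. The bean against 2-fold interaction gave 21, 104, 5, 173 and 69 calls with the 10 CPM filter, DESeq2, molecule-scaled counts, no filter and the covariate, and 2 to 114 with a library left out, instead of 38. The bean against 190-cell interaction gave 0, 24, 5, 1, 93 and 64 with the 10 CPM filter, DESeq2, TMMwsp, molecule-scaled counts, no filter and the covariate, and 0 to 24 with a library left out, instead of 11. The cause was not tested. With the replicate number as a block these counts were 133, 184 and 75. The numbers do not pair the libraries: deviations of same-numbered libraries correlated at r = −0.019 between the bean groups and −0.225 to 0.191 among all pairs of groups.

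The median of the predicted targets was 0.45 to 0.82 with a library left out. That of the 14 discussed targets was 1.11 with the covariate and 1.02 to 1.74 with a library left out. That of late genes was 0.21 (10 CPM filter), 0.0028 (DESeq2), 0.0103 (RLE), 0.016 (TMMwsp), 0.21 (bean alone), 0 (molecule-scaled), 0.11 (no filter), 0.11 (replicate block), −0.14 (covariate) and 0 to 0.12 (library left out). That of early genes was −0.41 with the covariate and 5.3e-05 to 0.21 with a library left out. With 3 reads in place of 3 molecules the floors would be 0.824 CPM (wild-type) and 0.471 CPM (null).

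Single genes that turned in sign were not called in that setting. The covariate parts the genotypes completely, so in values with it its part and that of genotype cannot be told apart. With the covariate the log2 fold changes were −0.18 (hst-2), −0.51 (mig-1), −1.43 (lin-17), −0.67 (vab-2), 1.46 (eff-1), 1.54 (hrg-4), 0.53 (mogs-1), 0.025 (egg-6), −0.0901 (mel-11), −0.48 (vab-9), −0.31 (hmp-1), −0.34 (hlh-1), −0.30 (epi-1), −0.045 (nhr-25), 0.24 (egl-18), −0.071 (pdi-2), −0.43 (lit-1), −0.013 (plx-2), −0.042 (unc-73), 0.30 (hil-5), −0.17 (pmt-2) and −0.59 (pole-4). In the other settings they were 0.017 (eff-1, bean libraries alone), 0.12 (eff-1, molecule-scaled counts), 1.37 (hrg-4, replicate block) and 0.017 (F13H10.8, no low-count filter). With a library left out they ranged over −0.055 to 0.92 (hst-2), −0.14 to 0.37 (vab-2), −3.15 to 0.97 (eff-1), −1.64 to 6.20 (hrg-4), −2.92 to 0.80 (ttr-34), −0.12 to 0.069 (F13H10.8), −6.26 to 2.33 (lpr-1), −1.03 to 0.015 (elt-1), −2.87 to 8.08 (F44E5.5), −7.25 to 3.79 (ifb-2), −2.88 to 7.40 (egl-3), −1.62 to 0.24 (ced-12) and −0.23 to 0.63 (pole-4). Over all named genes and settings there were 43 such turns, against 2271 values that kept direction and side of the threshold, 219 that gained a call and 36 that lost it.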
